A study of Mus musculus with 6 samples.

Results

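Neuropeptide precursors, the secretory granule proteins that package and cut them, and markers of the diencephalon were followed array by array in mouse brain, and between Pla2g2e knockout and wild type. The set holds 35 genes taken by name from a given list: 15 neuropeptide precursors, 11 genes of granule cargo and processing, and 9 markers of thalamus, habenula, hypothalamus or nearby tissue. All 35 were on the array, through 52 probes, and all 35 were tested among 22579 genes. The array held 27578 named genes in all. For 12 members more than 1 probe was present, and the probe with the highest mean level stood for the gene.

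The samples were 3 brains labelled Pla2g2e-deficient (KO1, KO2 and KO3), set against 3 labelled wild type (WT1, WT2 and WT3). All mice were males of the C57BL/6N background, and titles and descriptions call every one of them sham-operated. The treatment text attached to the same samples tells of middle cerebral artery occlusion lasting 60 min, so the surgery is given here as labelled in the titles. Pla2g2e codes for one of the secreted phospholipases A2, which cut fatty acids from membrane phospholipids; the labels name neither the construct of the deletion nor the age, and they name the tissue only as brain. They do not say that the replicates are separate animals, so the p-values reflect only how far these samples differ, and that variation may be technical. Each sample was hybridised in 1 colour to 1 Agilent array.

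A level is the log2 of a probe's processed intensity relative to its array's 75th percentile, so a difference of 1 is a 2-fold difference and levels of different probes are not set against each other. The summed level of a list adds the unlogged levels of its probes, so the brightest probes weigh most in it. Between 82.0% and 85.3% of non-control spots were well above background on each array. The Pla2g2e probe had levels of -7.07, -7.87 and -7.83 in KO1 to KO3, against -7.09, -7.26 and -6.67 in WT1 to WT3. These dim values overlapped, the difference was -0.59 (limma adjusted p = 0.429), and whether the probe lies in the deleted part is not given, so it does not check the labels. WT1, WT2, WT3 and KO1 shared a slide, and KO2 and KO3 shared another.

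Neuropeptides are made as precursors that enter the regulated secretory pathway. Granins such as chromogranin B and secretogranin II are condensed with them into dense-core granules, where prohormone convertases cut the precursor, carboxypeptidase E trims the ends and peptidylglycine alpha-amidating monooxygenase adds the terminal amide. Many of the peptides are made by small, sharply placed groups of hypothalamic neurons, whereas the granule proteins are shared by neurons and endocrine cells across the brain. In bulk tissue, fewer cells of a type and less RNA per cell cannot be told apart.

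The peptide precursors and region markers varied strongly from array to array, while the granule genes hardly did. The range of a gene over the 6 arrays exceeded 1 on the log2 scale for 18 of the 35 members (51.4%), against 13.3% of all genes tested. This held for 11 of 15 neuropeptide precursors, whose median range was 1.4, and for 6 of 9 diencephalon markers, whose median range was 1.23. Of the 11 granule genes only Pcsk1 had such a range, and their median range was 0.179, below the median of 0.376 over all genes. The highest array exceeded the lowest 17.6-fold for Oxt, 10.6-fold for Pmch and 7.06-fold for Pomc, but only 1.12-fold for Chga and for Chgb.

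**Figure D1:**
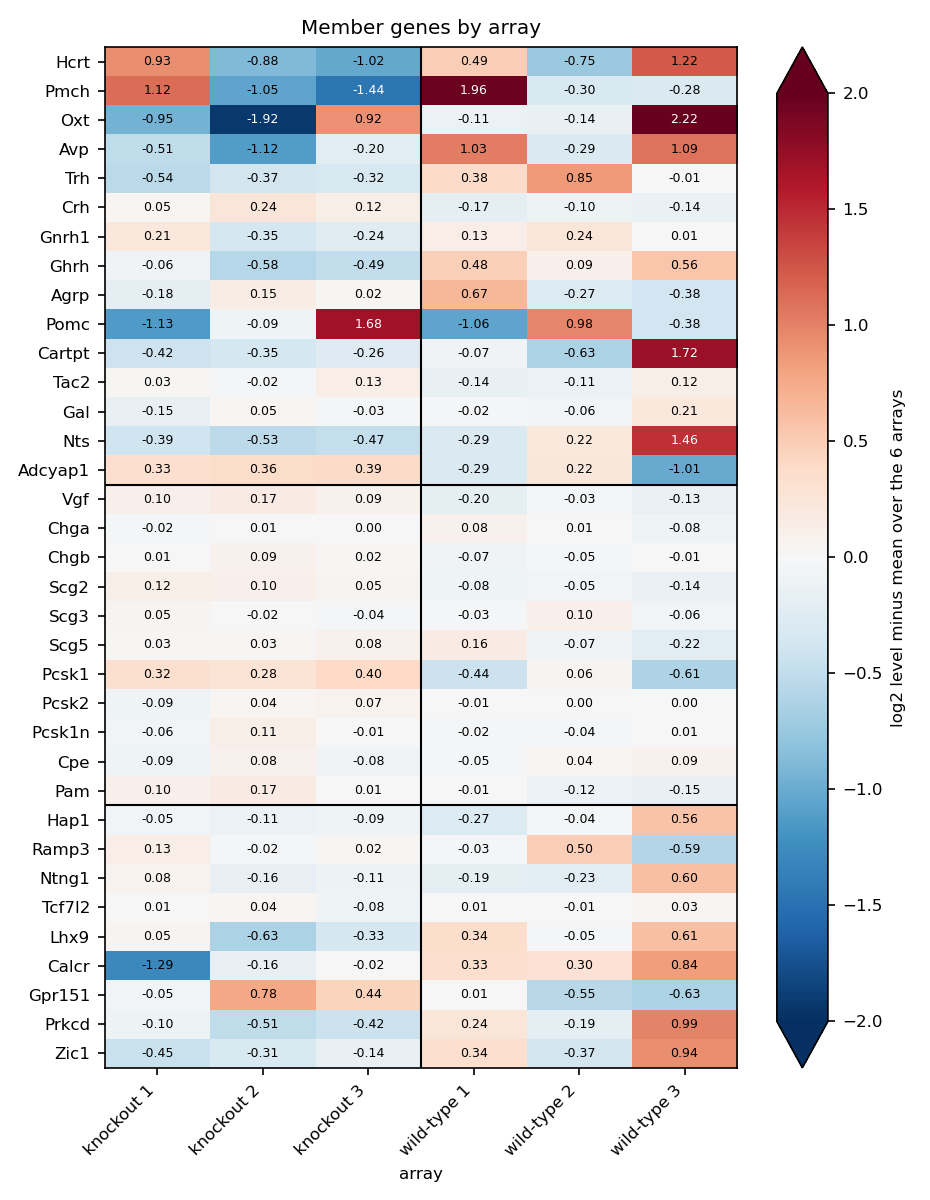
Log2 level of each of the 35 members on each array, minus that gene's mean over the 6 arrays; columns are KO1 to KO3 and then WT1 to WT3, horizontal lines part the neuropeptide precursors, the granule genes and the diencephalon markers, and colours are capped at 2. The precursors and region markers range widely, with 11 of 15 and 6 of 9 spanning more than 1, while the block of granule genes stays pale.

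No member passed the threshold between the genotypes. With limma, 0 of 35 members and 0 of 22579 genes (0%) had an adjusted p under 0.05. At an unadjusted p under 0.05 there were 11 members, against 12.4% of all genes; 6 of them were higher in knockout (3.08% of all genes) and 5 were lower (9.35%). The 3 knockout values lay wholly above or wholly below the 3 wild-type values for 11 members, 7 above and 4 below, against 19.8% of all genes (7.6% above and 12.2% below). The median difference, knockout minus wild type, was -0.64 over the precursors, 0.09 over the granule genes and -0.17 over the diencephalon markers, beside -0.01 over all genes. These figures describe the lists and are no tests. Calcr and Gpr151, each near background in 1 genotype, are among the 11 at an unadjusted p under 0.05, and Calcr is also among the 4 below. When every probe had to be well above background on all arrays, 10 of 33 members had groups that did not overlap (19.4% of all genes). Over all genes well above background on all 6 arrays, 2.65% were higher and 8.99% lower at an unadjusted p under 0.05. Of the 33 members among them, 9 had an unadjusted p under 0.05, 5 higher and 4 lower. With the slide as a fixed block 2 members did (5.58% of all genes), and on the slide that held both genotypes 1 member did (4.33%), with a precursor median of -0.20 in each. Leaving out KO2 left 5 members (7.54% of all genes), leaving out WT3 left 6 (10.8%) and leaving out KO3 left 7 (7.26%). Of all genes at an unadjusted p under 0.05, 75.2% were lower in knockout, but 24.6% were lower after median centring.

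**Figure D2:**
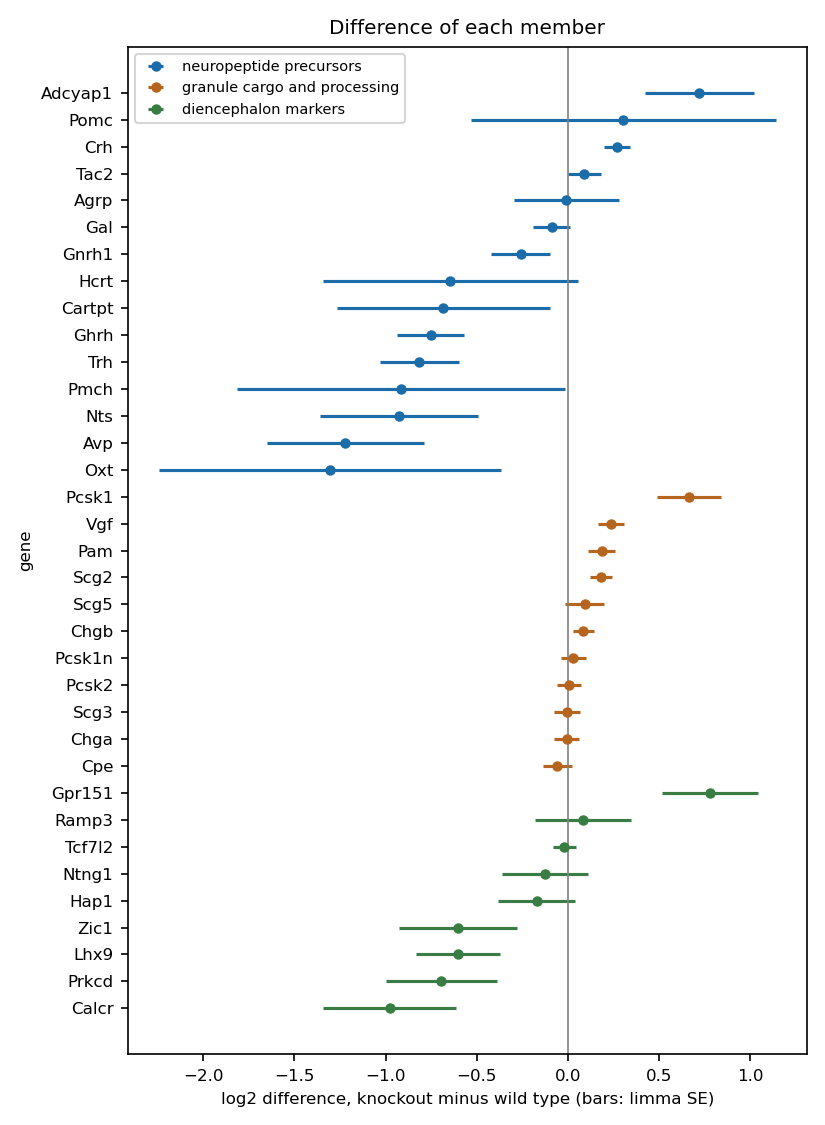
Log2 difference of each member, knockout minus wild type, with the limma standard error as bars; colours give the 3 classes. Precursors spread from -1.31 for Oxt to 0.72 for Adcyap1, and granule genes other than Pcsk1, at 0.66, lie between -0.06 and 0.24.

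Among the releasing factors, which the hypothalamus sends to the pituitary, Trh and Ghrh were lower and Crh was higher in all 3 knockout samples. Trh, the thyrotropin-releasing hormone precursor (probe at chr6:92192061-92192120, mm9), had levels of -2.62, -2.45 and -2.40 in KO1 to KO3, against -1.71, -1.23 and -2.09 in WT1 to WT3. The groups did not overlap, WT2 was the highest array, and the difference was -0.81 ± 0.22 (SE), with a limma adjusted p of 0.300. Ghrh, the growth hormone-releasing hormone precursor (chr2:157155249-157155308), had levels of -5.33, -5.84 and -5.75 in knockout and -4.78, -5.17 and -4.71 in wild type. Again the groups did not overlap, with a difference of -0.75 ± 0.18 and a limma adjusted p of 0.272; it was -0.39 with normexp background correction and -0.44 on the shared slide. Crh, the corticotropin-releasing hormone precursor (chr3:19593482-19593541), which cortical interneurons make as well as the hypothalamus, had levels of 0.77, 0.96 and 0.85 in knockout and 0.55, 0.63 and 0.59 in wild type. Its difference was 0.27 ± 0.07, a 1.21-fold higher signal, with a limma adjusted p of 0.301. Gnrh1, the gonadotropin-releasing hormone precursor, averaged -5.70 ± 0.30 in knockout and -5.44 ± 0.12 in wild type (SD, n = 3 each), and its groups overlapped. A second Gnrh1 probe was well above background only on KO1 and KO3 and was not tested.

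The posterior pituitary hormones were spread over the arrays and lower on average in knockout. Oxt, the oxytocin precursor (chr2:130402665-130402724), had levels of -2.54, -3.51 and -0.67 in KO1 to KO3, against -1.70, -1.73 and 0.63 in WT1 to WT3. WT3 and KO3 were the highest arrays, so the groups overlapped, and the difference of -1.31 ± 0.94 had a limma adjusted p of 0.590. It was -0.52 without WT3, -0.67 without KO2 and -2.09 without KO3. Avp, the vasopressin precursor (chr2:130406552-130406817), had levels of -3.06, -3.67 and -2.75 in knockout and -1.52, -2.84 and -1.46 in wild type. WT1 and WT3 stood apart above the other arrays, while WT2 lay within the knockout range; the difference was -1.22 ± 0.43 (limma adjusted p = 0.364).

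The peptides of the lateral hypothalamus were high on arrays of both genotypes. Hcrt, the hypocretin (orexin) precursor of wake-promoting neurons (chr11:100623007-100623066), had levels of -1.93, -3.74 and -3.88 in KO1 to KO3, against -2.37, -3.61 and -1.64 in WT1 to WT3. Pmch, the melanin-concentrating hormone precursor of neighbouring neurons (chr10:87555031-87555090), had levels of -2.18, -4.35 and -4.74 in knockout and -1.34, -3.60 and -3.58 in wild type. KO1 and WT1 were high for both genes, WT3 was high for Hcrt only, and KO2 and KO3 were the lowest for both. The differences were -0.64 ± 0.70 for Hcrt and -0.92 ± 0.90 for Pmch, with limma adjusted p-values of 0.720 and 0.689. On the slide that held both genotypes, where KO1 alone stood for knockout, both differences had the opposite sign, 0.61 for Hcrt and 0.66 for Pmch. Without WT3 the Hcrt difference was -0.19, and without WT1 the Pmch difference was -0.17. A second, dim Hcrt probe ran the other way over the 6 arrays, with a difference of 0.79.

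The appetite peptides of the arcuate nucleus had no common pattern. Pomc, the proopiomelanocortin precursor of melanocortins, endorphin and, in the pituitary, corticotropin (chr12:3960413-3960472), had levels of -1.47, -0.43 and 1.35 in KO1 to KO3, against -1.40, 0.64 and -0.72 in WT1 to WT3. KO3 and WT2 were the highest and KO1 and WT1 the lowest, so each genotype spanned most of the range; the difference was 0.31 ± 0.84 (limma adjusted p = 0.897). Without KO3 it was -0.46, and on the shared slide it was -0.98. Cartpt, the precursor of the CART peptides (chr13:100668967-100669956), had levels of -1.33, -1.26 and -1.17 in knockout and -0.98, -1.54 and 0.81 in wild type. WT3 alone stood apart, and without it the difference of -0.68 was 0.01. Agrp, the melanocortin antagonist precursor, averaged -4.25 ± 0.16 in knockout and -4.24 ± 0.58 in wild type (SD, n = 3 each), with WT1 the highest array.

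The arrays with high Pomc were those with high anterior pituitary hormones. Gh, the growth hormone gene, had levels of -5.74, -3.02 and -0.82 in KO1 to KO3, against -6.11, -1.39 and -4.35 in WT1 to WT3. Prl, the prolactin gene, had levels of -4.18, -1.44 and 0.67 in knockout and -4.29, 0.17 and -2.77 in wild type, and Cga, the shared alpha subunit of the glycoprotein hormones, had levels of -7.66, -3.92 and -1.92 in knockout and -7.38, -2.56 and -6.16 in wild type. All 3 hormones, like Pomc, were highest on KO3, then WT2, KO2 and WT3, and lowest on KO1 and WT1. Of the 9 pituitary markers 5 were tested, and the summed level of the list was 0.126 to 2.45 times the array's 75th percentile in knockout and 0.116 to 1.72 times in wild type. Lhb and Pou1f1 did not follow this order, and Tshb, Fshb, Pitx1 and Tbx19 were on the array but did not meet the conditions for testing. The part of pituitary tissue in the Pomc values was not tested.

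**Figure D3:**
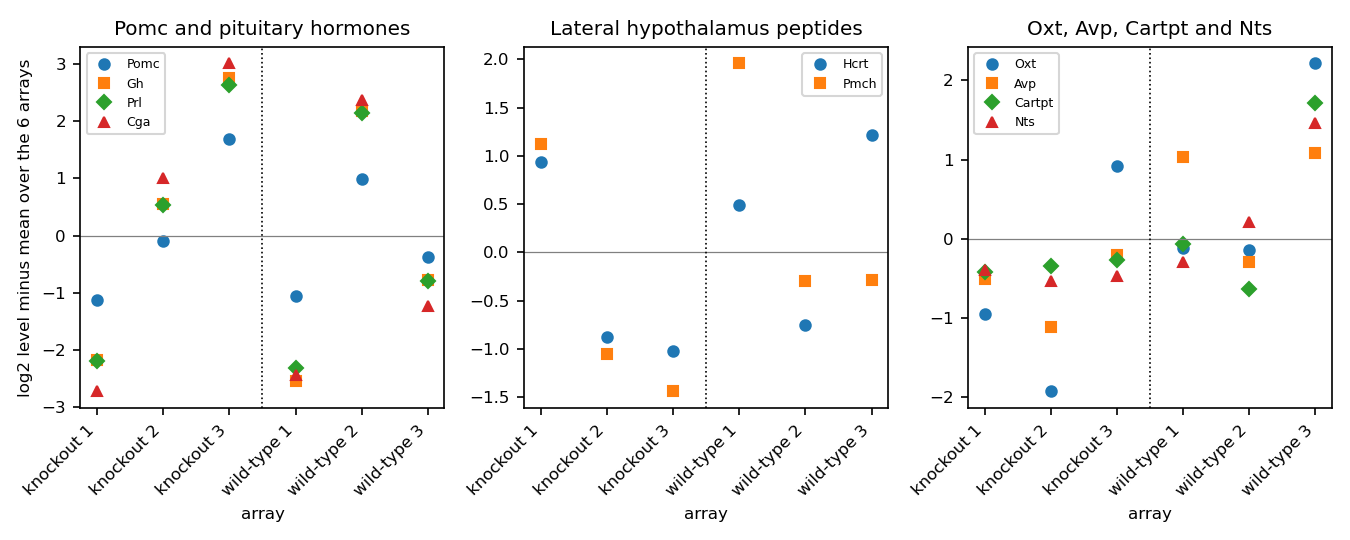
Log2 level minus the gene's mean over the 6 arrays, for KO1 to KO3 left of the dotted line and WT1 to WT3 right of it; panels show Pomc with the pituitary hormones Gh, Prl and Cga, the lateral hypothalamic Hcrt and Pmch, and Oxt, Avp, Cartpt and Nts. Pomc and the hormones are high on KO3 and WT2, Hcrt and Pmch on KO1 and WT1, and Oxt, Cartpt and Nts on WT3. Hcrt, unlike Pmch, is highest on WT3.

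Of the remaining precursors, Nts and Adcyap1 had groups that did not overlap, and Tac2 and Gal hardly varied. Nts, the neurotensin precursor, averaged -4.42 ± 0.07 in knockout and -3.49 ± 0.90 in wild type (SD, n = 3 each). The difference of -0.93 ± 0.43 had a limma adjusted p of 0.439, and WT3, at -2.49, was far above the other arrays; without it the difference was -0.43. Adcyap1, the PACAP precursor (chr17:93604401-93604460), had levels of 0.43, 0.47 and 0.49 in KO1 to KO3, against -0.18, 0.32 and -0.91 in WT1 to WT3. Knockout samples were tightly grouped and WT3 was the lowest; the difference was 0.72 ± 0.30, with a limma adjusted p of 0.404, and it was 0.39 without WT3. Tac2, the neurokinin B precursor (chr10:127168764-127168823), had levels of 1.42, 1.38 and 1.53 in knockout and 1.26, 1.29 and 1.51 in wild type, groups that overlapped. Gal, the galanin precursor, averaged -1.85 ± 0.10 in knockout and -1.76 ± 0.14 in wild type (SD, n = 3 each).

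Of the 11 granule genes 8 were higher in knockout, against 46.9% of all genes. At an unadjusted p under 0.05, 4 were higher (3.08% of all genes) and 0 were lower (9.35%). After median centring all 11 were higher, against 72.9% of all genes. Vgf, a granin-like cargo whose gene responds to neuronal activity and neurotrophins (chr5:137509153-137509212), had levels of 5.59, 5.67 and 5.59 in KO1 to KO3, against 5.30, 5.46 and 5.37 in WT1 to WT3. Scg2, secretogranin II (chr1:79431323-79431382), had levels of 4.34, 4.32 and 4.27 in knockout and 4.14, 4.17 and 4.09 in wild type. Chgb, chromogranin B (chr2:132620703-132620762), had levels of 6.17, 6.24 and 6.17 in knockout and 6.08, 6.11 and 6.14 in wild type. In none of these did the groups overlap, with differences of 0.24 ± 0.07 for Vgf, 0.18 ± 0.06 for Scg2 and 0.09 ± 0.06 for Chgb. The limma adjusted p-values were 0.315, 0.345 and 0.578 for the same genes. The other granins, Chga, Scg3 and Scg5, had overlapping groups and differences of -0.01, -0.01 and 0.09.

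Of the processing enzymes, Pcsk1 differed most. Pcsk1, prohormone convertase 1/3 (chr13:75269727-75269786), had levels of -0.26, -0.31 and -0.19 in KO1 to KO3, against -1.02, -0.53 and -1.20 in WT1 to WT3. All knockout samples lay above all wild-type samples, 1.58-fold on average, with a difference of 0.66 ± 0.18 and a limma adjusted p of 0.295. Pcsk2, the partner convertase, averaged 4.52 ± 0.08 in knockout and 4.51 ± 0.00 in wild type (SD, n = 3 each). Pcsk1n, the proSAAS inhibitor of the convertase (chrX:7500267-7500326), had levels of 5.23, 5.40 and 5.29 in knockout and 5.27, 5.25 and 5.30 in wild type. Cpe, carboxypeptidase E (chr8:67071401-67071460), had levels of 6.57, 6.74 and 6.58 in knockout and 6.61, 6.70 and 6.75 in wild type, and in both genes the groups overlapped. Pam, the amidating enzyme, averaged -0.49 ± 0.08 in knockout and -0.67 ± 0.07 in wild type without overlap, but a second Pam probe was lower in knockout, with a difference of -0.42, and the mean of both probes differed by -0.12.

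**Figure D4:**
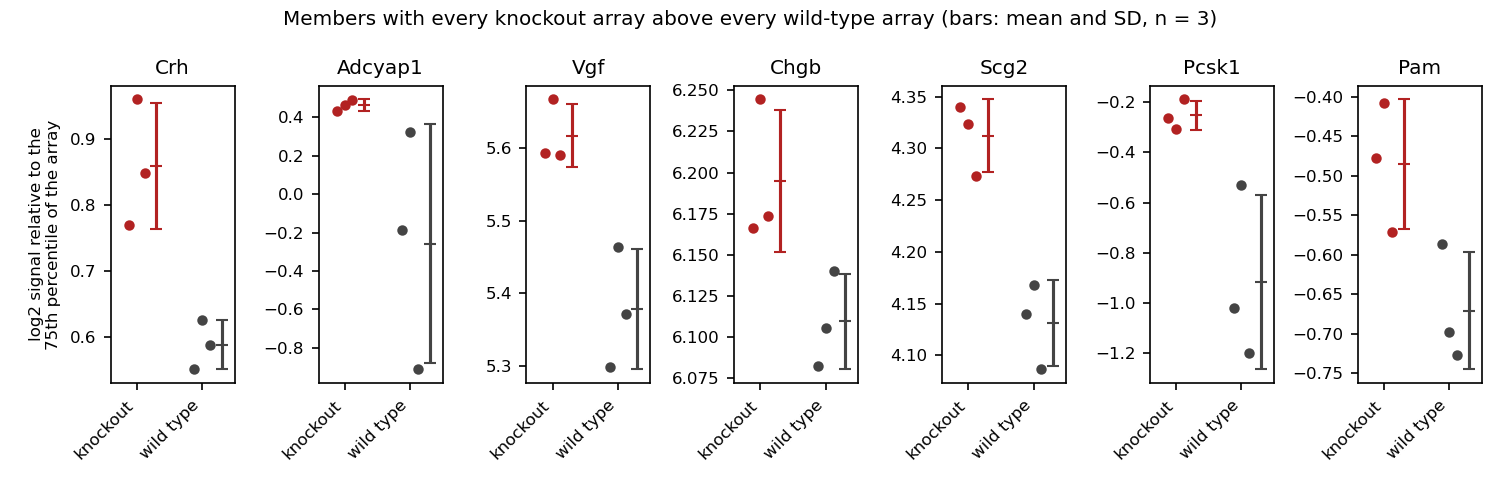
Log2 level relative to the array's 75th percentile for the 7 members whose knockout values all lay above the wild-type values, with knockout left of wild type; points are the 3 samples of a group, bars show mean and SD, and each panel has its own axis. The difference of the means is largest of the 7 for Adcyap1 and Pcsk1, at 0.72 and 0.66, and smallest for Chgb at 0.09.

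The sizes of these differences depended on how arrays were scaled, but for Crh, Adcyap1, Vgf, Chgb, Scg2 and Pcsk1 the sign did not change in any of the 18 alternatives run. In many of these it could not change. The groups of these genes did not overlap, so leaving out samples keeps the sign, and each has a single probe, so averaging probes does too. Median centring moved the median of all genes to 0.13, and the granule median to 0.23 with it, where Vgf differed by 0.38, Scg2 by 0.32 and Crh by 0.41. The summed level of the 7 tested neuron markers was 248 to 271 times the 75th percentile in knockout and 240 to 260 times in wild type, ranges that overlapped. Of these markers 1, the neurofilament gene Nefl, was higher on every knockout sample, with a difference of 0.23 (limma adjusted p = 0.316). The 9 neocortical projection neuron markers had a median difference of 0.08, and their summed level was 35.7 to 38.4 in knockout and 35.1 to 39 in wild type. Their part in the differences of Crh, Adcyap1 and the granule genes was not tested.

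Member promoters are shown where they hold the cyclic AMP response element, TGACGTCA, the textbook binding site of CREB in neuropeptide and granin genes. Windows of 300 bases, 250 before to 50 after each start, were taken from RefSeq on build GRCm38.p6. Of the members, 29 were matched, all but Agrp, Cpe, Crh, Gnrh1, Gpr151 and Vgf. The element is its own reverse complement, so both strands are searched at once. It was found in 4 of the 29 members (13.8%), against 2.03% of the 27025 genes with a window (1.79% of the 32851 windows). The 4 are Chgb, Pcsk1 and Scg2, which were higher on every knockout sample, and Cartpt, which was not. Over all genes, 7.6% were higher on every knockout sample and 12.2% lower on every one. The shorter TGACG, which every full element contains, was found on either strand in 16 of 29 members (55.2%), against 23.0% of all such genes. The 16 include Adcyap1, Chgb, Pcsk1 and Scg2, higher on every knockout sample, and Ghrh, Nts and Trh, lower on every one. Calcr, among the 16 too, was also lower on every one, but it was tested only through wild type, as KO1 was near background. In the rest of the 16 the groups overlapped. Pam, also higher on every knockout sample, held neither. A link between the element and the direction of a difference was not tested. A match describes letters in a window and does not show binding. The 150 bases before the start are given 5′ to 3′ on the gene's strand with the element in capitals. They lie at chr2:132781492-132781641 on the plus strand for Chgb, chr13:75089707-75089856 on the plus strand for Pcsk1, chr1:79440027-79440176 on the minus strand for Scg2 and chr13:99900684-99900833 on the minus strand for Cartpt. The element begins 72, 78, 68 and 112 bases before the start in that order.
Chgb: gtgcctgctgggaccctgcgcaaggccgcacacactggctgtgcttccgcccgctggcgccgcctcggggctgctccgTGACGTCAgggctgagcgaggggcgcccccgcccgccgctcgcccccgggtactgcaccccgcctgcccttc
Pcsk1: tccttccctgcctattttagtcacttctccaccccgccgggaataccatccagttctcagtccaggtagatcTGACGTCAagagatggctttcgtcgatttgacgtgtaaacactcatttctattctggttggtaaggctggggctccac
Scg2: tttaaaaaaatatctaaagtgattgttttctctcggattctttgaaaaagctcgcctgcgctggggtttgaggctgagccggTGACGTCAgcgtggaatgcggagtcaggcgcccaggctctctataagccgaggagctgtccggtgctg
Cartpt: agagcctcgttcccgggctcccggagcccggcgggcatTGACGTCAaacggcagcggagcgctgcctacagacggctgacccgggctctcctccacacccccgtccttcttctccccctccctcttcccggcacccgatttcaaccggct

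Among the diencephalon markers, 6 of 9 had their highest level on WT3. Zic1, a transcription factor of medial thalamus and septum (chr9:91255425-91255484), had levels of 0.49, 0.63 and 0.80 in KO1 to KO3, against 1.28, 0.57 and 1.88 in WT1 to WT3. Ntng1, netrin-G1 of thalamocortical axons (chr3:109946348-109946407), had levels of 1.04, 0.80 and 0.86 in knockout and 0.78, 0.74 and 1.56 in wild type. Hap1, a huntingtin-associated protein abundant in hypothalamus (chr11:100208811-100208870), had levels of 2.17, 2.11 and 2.13 in knockout and 1.95, 2.18 and 2.78 in wild type. In these 3 genes WT3 stood above the other arrays and the groups overlapped, with differences of -0.60, -0.13 and -0.17; without WT3 they were -0.28, 0.14 and 0.069. Prkcd, a protein kinase C of thalamic relay neurons, averaged -2.39 ± 0.22 in knockout and -1.69 ± 0.60 in wild type (SD, n = 3 each), again with WT3 the highest, and its difference of -0.69 was -0.37 without WT3. Ramp3, a receptor activity-modifying protein found in thalamus (chr11:6577416-6577475), ran the other way, with levels of 2.31, 2.16 and 2.20 in knockout and 2.15, 2.68 and 1.60 in wild type. WT2 was its highest and WT3 its lowest array.

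Tcf7l2, a Wnt-pathway transcription factor of thalamus and habenula, hardly varied on the probe that stood for it. That probe averaged -3.97 ± 0.06 in knockout and -3.95 ± 0.02 in wild type (SD, n = 3 each). Another Tcf7l2 probe, averaging -4.26 in knockout and -3.83 in wild type, was lower in all knockout samples. Its difference was -0.44, with a limma adjusted p of 0.255 in the fit of every probe. The remaining probe differed by -0.20, and the mean over the probes by -0.22. With normexp background correction the gene's difference was -0.35. Lhx9, a thalamic transcription factor (chr1:140721909-140721968), had levels of -5.51, -6.18 and -5.89 in KO1 to KO3, against -5.21, -5.61 and -4.95 in WT1 to WT3. KO1 lay within the wild-type range, and the difference of -0.60 ± 0.23 had a limma adjusted p of 0.384; it was -0.29 with normexp background correction and -0.25 on the shared slide.

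The 2 dimmest markers sat near the detection limit. Calcr, the calcitonin receptor of hypothalamic neurons (chr6:3635940-3635999), had levels of -8.78, -7.65 and -7.50 in knockout and -7.16, -7.19 and -6.65 in wild type, and KO1 was not well above background. The groups did not overlap, and the estimated difference was -0.98 (limma adjusted p = 0.378), but it was -0.24 with normexp background correction, -0.58 without KO1 and -1.78 on the shared slide. Gpr151, an orphan receptor of the habenula, had levels of -7.87, -7.04 and -7.38 in knockout and -7.81, -8.37 and -8.45 in wild type, and WT2 and WT3 were not well above background. KO1 and WT1 lay side by side. With only 1 wild-type array well above background, the estimated difference was unstable, at 0.78 with the processed signal, 0.34 on the shared slide and 0.054 with normexp background correction.

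Other genes of the same regions differed between arrays too. Of 14 further hypothalamus genes 11 were tested, and 8 were well above background on all 6 arrays. Over those 8 the median difference was -0.41, and 3 were lower and 0 higher in knockout at an unadjusted p under 0.05 in the limma fit, against 8.99% and 2.65% of the 21581 genes that were well above background on all 6 arrays. Their summed level was 0.572 to 0.725 in knockout and 0.820 to 1.05 in wild type, ranges that did not overlap. Among them, Magel2, an imprinted gene of hypothalamic neurons, had levels of -3.58, -3.40 and -3.90 in KO1 to KO3, against -2.88, -3.13 and -2.003 in WT1 to WT3 (limma adjusted p = 0.341). Nr5a1, the transcription factor of the ventromedial nucleus, had a difference of -0.19, and Gabre, a GABA receptor subunit, one of -0.33. The transcription factor genes Foxb1 and Nkx2-1 stayed under the limit for well above background in all knockout samples, and Otp in all wild-type samples, so they entered through 1 genotype and are in neither the count nor the median. Of 13 further thalamus and habenula genes 12 were tested, with a median difference of -0.03 and none at an unadjusted p under 0.05. Their summed level was 3.21 to 3.63 in knockout and 3.22 to 3.84 in wild type.

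WT3, where Oxt, Cartpt, Nts, Avp and the 6 diencephalon markers peaked, also had the highest striatum markers. The median level of the 12 tested striatum markers, each minus its own mean, was 1.24 on WT3 and between -0.36 and 0.09 on the other 5 arrays. Their summed level was 31.6 to 40.3 in knockout and 33.6 to 71.5 in wild type. Drd1, the dopamine D1 receptor gene of striatal neurons, was the 1 marker with an unadjusted p under 0.05. It was lower in knockout, which makes 8.33% of the list, against 8.99% of all genes above background on all 6 arrays. The choroid plexus list had a median of 1.07 and the meninges list 0.64 on WT3, the highest of any array for each. Summed levels were 8.01 to 14.7 in knockout and 5.07 to 25.2 in wild type over 9 choroid plexus markers, and 7.88 to 11 in knockout and 10.2 to 17.7 in wild type over 10 meningeal markers. The midbrain and hindbrain list holds markers of monoamine neurons and Slc6a5, a glycine transporter gene. Of its 9 tested genes 7, without Slc6a5, were well above background on all 6 arrays. Their median difference was -0.31, and 3 were lower at an unadjusted p under 0.05 (8.99% of all genes above background on all 6 arrays). Their summed level was 0.698 to 0.755 in knockout and 0.833 to 0.962 in wild type, without overlap. The 6 markers of pericytes and smooth muscle had summed levels of 2.36 to 3.03 in knockout and 3.38 to 3.58 in wild type, also without overlap. Of 7 hippocampus markers 3 were higher at an unadjusted p under 0.05, against 2.65% of all genes above background on all 6 arrays. The 7 markers had summed levels of 0.384 to 0.595 in knockout and 0.316 to 0.427 in wild type. The 4 cerebellum markers above background on all 6 arrays had a median difference of -0.38. The part of these tissues in the values of the members was not tested.

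**Figure D5:**
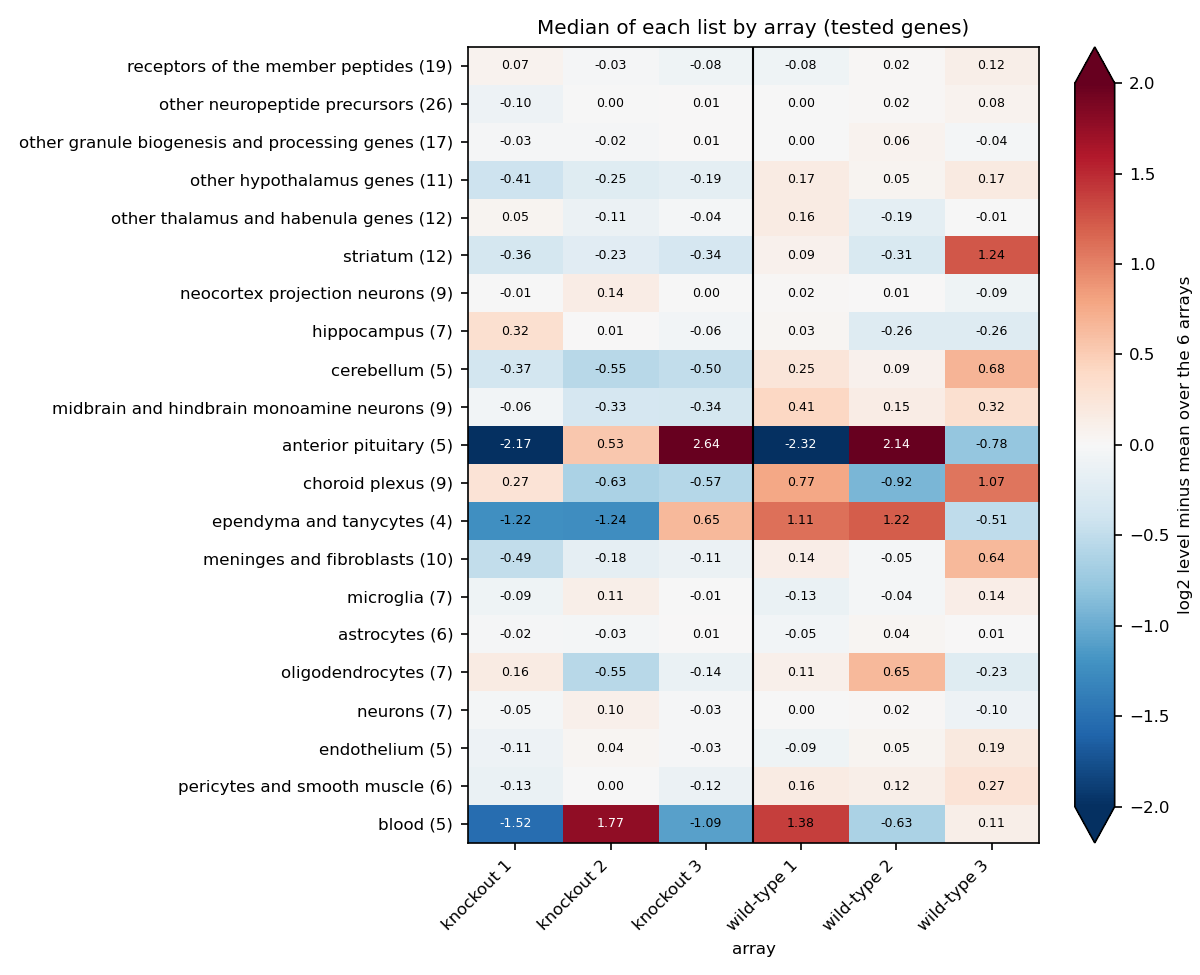
Median over the tested genes of each list (number in brackets) of the log2 level minus the gene's mean over the 6 arrays, for KO1 to KO3 and then WT1 to WT3. Colours are capped at 2. The lists keep genes tested through only 1 genotype, among them Foxb1, Nkx2-1, Otp, Gabra6, Slc6a4 and the glycine transporter gene Slc6a5. Such genes are left out of the hypothalamus, monoamine and cerebellum medians in the text. The anterior pituitary list reaches 2.64 on KO3 and 2.14 on WT2, the striatum list 1.24 on WT3, and the neuron and astrocyte lists stay near 0 on every array.

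The receptors, the other precursors and the other granule genes of the pathway were also measured. Of 22 genes for receptors of the member peptides 19 were tested, with a median difference of -0.13, and 5 had a range over 1, against 13.3% of all genes. Crhr1, the main CRH receptor of the brain, had levels of 1.47, 1.36 and 1.46 in KO1 to KO3, against 1.23, 1.14 and 1.18 in WT1 to WT3, without overlap (difference 0.25 ± 0.07, limma adjusted p = 0.291). Ntsr1, a neurotensin receptor, had levels of -0.83, -1.43 and -1.42 in knockout and -0.69, -0.72 and -0.35 in wild type (difference -0.64 ± 0.20, limma adjusted p = 0.326). These were the only tested receptors with an unadjusted p under 0.05. Sort1 and Ntsr2, the other brightest receptors of the list, differed by 0.04 and -0.03.

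Of 29 other neuropeptide precursors 26 were tested, and none had an unadjusted p under 0.05 in the limma fit. Their median difference was -0.02, and 7 had a range over 1, against 13.3% of all genes. Sst, the somatostatin precursor, differed by 0.03 and Cck, the cholecystokinin precursor, by 0.05. Penk, the enkephalin precursor of striatal neurons, had levels of 3.23, 3.24 and 3.07 in KO1 to KO3, against 3.45, 2.72 and 4.78 in WT1 to WT3, with WT3 standing apart as for the striatum markers. All 17 further granule genes were tested, with a median difference of -0.01 and a median range of 0.269, and 3 had a range over 1, near the 13.3% of all genes. Sytl4, which encodes the granule-docking protein granuphilin, had levels of -6.08, -6.07 and -5.55 in knockout and -5.30, -5.34 and -4.68 in wild type (difference -0.79 ± 0.23, limma adjusted p = 0.315). It was the 1 granule gene of this list with an unadjusted p under 0.05. That makes 5.88% of the list lower, against 8.99% of all genes above background on all 6 arrays. Hid1, Cadps and Resp18, the brightest of the list, differed by 0.06, 0.03 and 0.11.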

How the data were processed

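Total RNA from 6 mouse brain samples was column-purified, amplified and Cy3-labelled, as the labels' protocols state. The deposited files hold each spot's processed signal, an intensity that Agilent Feature Extraction 12.1.1.1 had background-subtracted and detrended, with surrogate values for the dimmest spots (2368 to 3150 per array), per the file headers. The uncorrected mean intensities deposited beside it were used in 1 alternative. Control spots (1377) and outlier-flagged spots were left out. The flagged spots numbered 68 to 98 on WT1, WT2, WT3 and KO1, but 314 on KO2 and 530 on KO3. Then log2 was taken, spots of a probe were averaged and each array's 75th percentile was subtracted. Probes were tested if all arrays of 1 or both groups were well above background there and each group kept at least 2 values. RefSeq accessions of 29510 probes gave current gene names (GRCm38.p6), and probes with no name were not tested. Knockout and wild type were compared with limma 3.58.1 (lmFit, eBayes, no covariate, two-sided) in R 4.3.3, with Benjamini-Hochberg adjustment over 22579 genes at 0.05, a procedure tested on simulated data. An exact permutation test of 3 against 3 samples was not used, since it cannot reach 0.05. Probe coordinates are the files' mm9 coordinates, and the exon under each is not given here.

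Members and lists were chosen with earlier results of these data known. Per-array values are given for the brightest 4 members of each class, the 5 with the smallest p in each direction, the 5 with the largest range and those near background; beyond the members, for the brightest genes of the pathway lists and those at an unadjusted p under 0.05. Penk and the pituitary hormones were also picked for their array pattern.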

Additional observations from a re-analysis of the deposited data

How the results depend on the processing

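The count of members past the limma threshold was 0 in every setting run, and 16 of 35 members kept their direction in all 18 alternatives. Calcr and Gpr151 kept theirs in the 17 in which they were tested. For members whose groups did not overlap, leaving out samples could not change the direction. The cause of the changes below was not tested. Against main medians of -0.02 over all members, -0.64 over precursors and 0.09 over granule genes, median centring gave 0.12, -0.50 and 0.23. Quantile normalization gave -0.047 over all members, and normexp background correction gave -0.061 over all members and -0.39 over precursors. The mean over the probes of a gene gave -0.26 over precursors and 0.031 over granule genes, and every probe on its own gave -0.089 over all members, -0.45 over precursors and 0.033 over granule genes. The slide as a fixed block left 2 members at an unadjusted p under 0.05 (5.58% of all genes), and the slide with both genotypes left 1 (4.33%), with 19 members whose groups did not overlap (46.7% of all genes there, where 1 knockout sample met 3) and a precursor median of -0.20 in both. A setting chosen after seeing the data, which left out KO3 and WT2, the samples with the highest pituitary hormones, gave 11 members at an unadjusted p under 0.05 (9.24% of all genes) and 19 without overlap (39.7% of all genes). Leaving out 1 sample at a time gave 5 (without KO2) to 11 (without WT2) members at an unadjusted p under 0.05 (7.26% to 14.8% of all genes), 12 to 18 without overlap (23.9% to 37.4%), and medians of -0.094 to -0.0098 over all members, -0.64 to -0.20 over precursors and 0.045 to 0.10 over granule genes. Without KO1, 60 genes passed the threshold, none of them members. Same-numbered samples did not deviate together (correlations of -0.02, -0.13 and -0.12), so the numbers were not taken as pairs; with the replicate block 10 members had an unadjusted p under 0.05 (10.7% of all genes) and 0 passed the threshold.

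Single members changed direction as follows, with values as log2 differences, knockout minus wild type. Under median centring Agrp was 0.13, Chga 0.14, Cpe 0.086, Gal 0.054, Ntng1 0.017, Scg3 0.14 and Tcf7l2 0.12, and under quantile normalization Agrp was 0.12, Pcsk2 -0.013 and Tcf7l2 0.10. Normexp gave 0.020 for Cpe, and the mean over probes gave -0.12 for Pam, 0.075 for Hcrt and 0.053 for Hap1. With the slide as a fixed block, and likewise on the slide with both genotypes, Gnrh1 was 0.081, Hcrt 0.61, Ntng1 0.013, Pcsk1n -0.046, Pcsk2 -0.087, Pmch 0.66, Pomc -0.98 and Scg3 0.047. The slide as a random block gave 0.0054 for Agrp. Without KO3 and WT2, Pcsk2 was -0.022, Scg3 0.061 and Tcf7l2 0.0068. Leaving out 1 sample at a time gave -0.20 to 0.32 for Agrp, -0.050 to 0.035 for Chga, -0.018 to 0.069 for Pcsk1n, -0.023 to 0.055 for Pcsk2, -0.037 to 0.041 for Scg3, -0.46 to 0.95 for Pomc and -0.046 to 0.015 for Tcf7l2. The same ranges were -1.17 to 0.0073 for Cartpt, -0.35 to 0.069 for Hap1, -0.27 to 0.14 for Ntng1 and -0.19 to 0.35 for Ramp3.

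With 3 samples a group, precision was limited by their number, and the dimmest probes, such as those of Calcr and Gpr151, lay near background, where the extraction software sets part of the signal. Neither was tested when all 6 arrays had to be well above background.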
